A study of Mus musculus with 24 samples.

Results

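Messenger RNA of 10 genes of blood clotting and clot breakdown was followed in mouse liver during acute pancreatitis. They encode coagulation factors II (F2, prothrombin), V (F5), VII (F7), IX (F9), X (F10), XI (F11) and XII (F12), plasma prekallikrein (Klkb1), protein C (Proc) and plasminogen (Plg). They were chosen by gene name, as 10 of the 55536 entries of the deposited expression table, and all 10 were measured and tested. Clotting factors are plasma proteins that hepatocytes secrete as inactive precursors and that activate one another in a chain, ending with thrombin, which turns fibrinogen into fibrin. In the contact phase factor XII and prekallikrein activate each other on a surface, kallikrein also releases bradykinin from kininogen, and the chain runs on through factors XI and IX to factor X. Factor VII with tissue factor reaches factor X from outside the vessel, protein C switches the chain off by cutting factor V, and plasminogen gives rise to plasmin, which dissolves fibrin.

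The 24 libraries came from livers of wild type Balb/c mice aged 6 weeks. They comprise 8 libraries of healthy controls (Con), 8 of acute pancreatitis (AP) and 8 of severe acute pancreatitis (SAP), in which organs beyond the pancreas can fail. Below, a liver means 1 library. The sources used here do not say how pancreatitis was brought about or when the livers were taken. The labels number the libraries within a group without saying whether each stands for a separate mouse, so a p-value here rests on spread between libraries that may be technical. Levels are read as transcripts per 1000000 (TPM), a unit inferred from the library sums. TPM are already divided by transcript length, so levels of different genes can be compared only if this reading holds. Differences are on the log2(TPM + 1) scale with their standard error (SE) and come from limma, fitted to the 10555 genes whose mean reached 1 TPM. A gene passed at an adjusted p under 0.05, adjusted over all 10555 genes. In whole liver, fewer cells of a type and less RNA per cell cannot be told apart.

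Libraries summed to between 986423 and 993642 TPM, and depth is unknown because TPM does not keep read counts. The hepatocyte markers sought (7 measured, Alb and Apoa1 the most abundant) summed to 40561 to 50038 TPM in controls, 37614 to 52062 in AP and 36282 to 47152 in SAP, and none of the 7 was at 0 in any library. Of these 7, Ttr, Apob and Cps1 fell in SAP and none rose. Exocrine pancreas markers summed to at most 0.9 TPM in any library. Neutrophil marker sums ran from 2.24 to 27.2 TPM in control livers and from 3.16 to 6.93 TPM in AP livers. They reached 123 to 349 TPM in SAP livers. The 3 of 7 markers that could be tested (S100a8, S100a9, Ngp) all rose in SAP. Ngp, with a mean of 0.036 TPM in controls, reached the filter of 1 TPM only through SAP and could be called only as a rise. Means of the untested Ly6g, Mpo and Camp were higher in SAP than in controls, and that of Elane was lower (0.056 against 0.205 TPM). Mitochondrially encoded transcripts took 12.5 to 22.2% of TPM in controls but 7.81 to 13.7% in AP and 2.80 to 6.26% in SAP, so the shares left for other transcripts differed between groups. Within SAP and within AP, libraries were divided into sets by values and not by labels, and whether the sets stand apart was not tested. In SAP 21, 22, 24 and 25 serum amyloid A genes took 7.37 to 9.28% of TPM, against 9.88 to 12.4% in SAP 26 to 29, and in AP 15, 17, 18 and 19 mitochondrial transcripts took 7.81 to 10.3%, against 11.5 to 13.7% in the other AP livers. Where leaving these libraries out changed a call of the 10 genes, this is stated.

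In severe pancreatitis the 10 genes went in opposite directions. Against controls 5 of 10 rose (F2, F5, F11, F12, Plg), 3 of 10 fell (F10, Klkb1, Proc) and F7 and F9 did not pass. Among all genes tested 44.2% rose and 29.8% fell in SAP, so these counts by themselves are near the background. The median log2 difference of the 10 genes was 0.32, against 0.21 over all genes tested. In 3 of 10 genes every SAP liver lay above every control (F2, F11, Plg) and in 3 of 10 every SAP liver lay below every control (F10, Klkb1, Proc), which was the case for 23.2% and 14.6% of all genes. The log2 differences ran from -3.69 for Klkb1 to 1.08 for F2. After quantile normalization, or after centring each library on its median, the split was 4 higher and 4 lower, as F5 no longer passed (adjusted p = 0.0558 and 0.144) and F9 passed as lower (adjusted p = 0.000568 and 5.19e-05). Over all genes 40.4% rose and 37.2% fell after quantile normalization, and 36.8% rose and 40.7% fell after centring. The median log2 difference over all genes was 0.03 and -0.06 under these scalings.

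**Figure D1:**
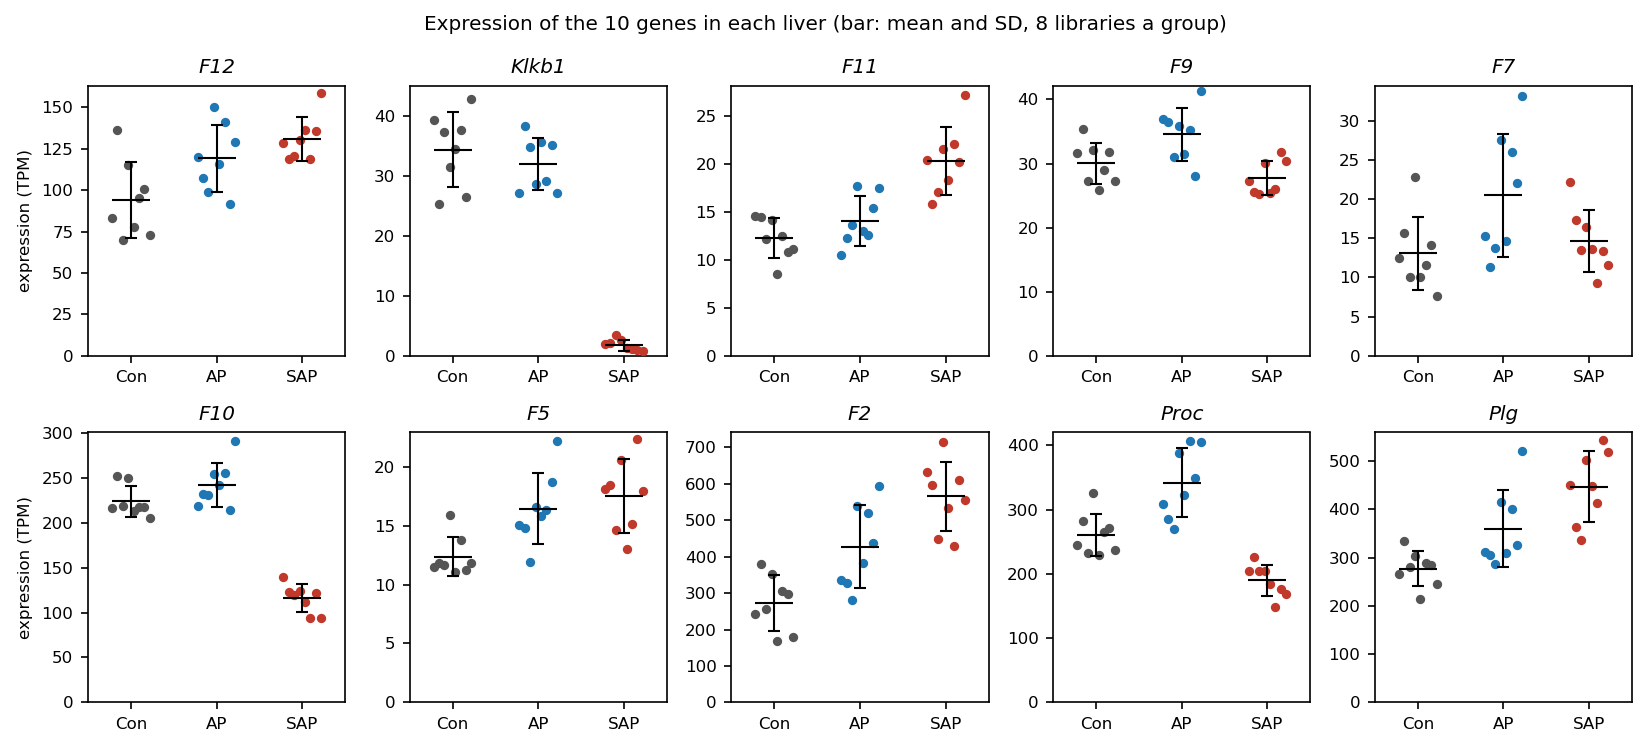
Expression in TPM (vertical axes, each from 0) of the 10 genes in every liver of the Con, AP and SAP groups, with 1 point per library and the mean and SD as bars. Klkb1 lies between 0.82 and 3.43 TPM in all 8 SAP livers and between 25.25 and 42.86 TPM in controls, while F2, F11 and Plg are higher in every SAP liver than in any control.

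Of the contact-phase genes, Klkb1 had the largest fall in severe pancreatitis. Its level in controls ran from 25.25 TPM through a median of 35.92 to 42.86 TPM, in AP from 27.17 through 31.97 to 38.24, and in SAP from 0.82 through 1.62 to 3.43. The highest SAP liver was thus far below the lowest control, and AP livers lay within the range of controls. The mean fell from 34.4 ± 6.22 to 1.82 ± 0.919 TPM (SD, n = 8 each), an 18.9-fold difference of the means, and the log2 difference was -3.69 ± 0.16 (SE, limma adjusted p = 4.78e-16). On the log2(TPM + 1) scale, from which the folds of F2, F10 and F11 below are taken, the fall was 12.9-fold. Across the 31 alternatives tried the difference stayed between -4.37 and -3.31 on the log2 scale and passed in each. Without SAP 26 to 29 it was -3.31, and without SAP 21 to 25 it was -4.08. In the GENCODE M21 annotation 42.7% of the 50-base windows of Klkb1 also occur in the overlapping Gm45753 or, for a few, in other genes. Gm45753 was at most 0.31 TPM in controls and at most 0.15 TPM in SAP, low in both.

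F11, which lies beside Klkb1 on chromosome 8 and encodes a protease with the same domain plan, went the other way. Controls spanned 8.51 to 14.55 TPM (median 12.34), AP livers 10.52 to 17.72 (median 13.3) and SAP livers 15.82 to 27.21 (median 20.29). All 8 SAP livers lay above every control, with a log2 rise of 0.68 ± 0.12 (SE, limma adjusted p = 2.71e-05), a 1.60-fold change. None of the 50-base windows of F11 occurs in another gene. F12, whose product starts the contact phase, rose less, from 93.9 ± 23.0 TPM in controls to 131 ± 13.2 TPM in SAP (log2 rise 0.50 ± 0.13, limma adjusted p = 0.00114). Its groups overlapped, since Con 3 stood at 136.36 TPM, and only SAP 29, at 158.41 TPM, exceeded every control.

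The sequences around the transcription start of Klkb1 and F11 are shown because these neighbours, both on the reverse strand, moved in opposite directions. They span 250 bases before to 50 bases after the start, from RefSeq (build GRCm38.p6), at chr8:45294786-45295085 for Klkb1 and chr8:45261982-45262281 for F11, 5′ to 3′ on the strand of the gene. Capitals mark matches on either strand to motifs of liver transcription factors, namely C/EBP (the letters TTGCNNAA), FOXA factors (the letters TGTTTAC), HNF4 (the letters CAAAGTNCA) and STAT factors (the letters TTCNNNGAA).
Klkb1: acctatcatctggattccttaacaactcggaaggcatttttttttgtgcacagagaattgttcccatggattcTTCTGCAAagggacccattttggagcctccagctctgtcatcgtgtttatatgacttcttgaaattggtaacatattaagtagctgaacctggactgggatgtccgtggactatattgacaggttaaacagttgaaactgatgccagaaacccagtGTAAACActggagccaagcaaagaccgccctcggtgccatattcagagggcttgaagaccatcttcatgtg
F11: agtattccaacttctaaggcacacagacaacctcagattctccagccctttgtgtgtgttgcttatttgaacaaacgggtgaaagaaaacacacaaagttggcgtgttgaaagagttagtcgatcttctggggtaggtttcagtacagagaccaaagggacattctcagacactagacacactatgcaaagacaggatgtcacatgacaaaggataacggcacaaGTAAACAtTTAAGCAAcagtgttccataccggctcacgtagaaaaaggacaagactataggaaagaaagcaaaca
Both hold the FOXA letters close to the start, from 21 bases before it in Klkb1 and from 25 bases before it in F11, and both hold the C/EBP letters, from 177 and from 17 bases before it. Of all 32851 promoters of this length 3.65% hold the FOXA letters and 10.8% the C/EBP letters. A match is a description of letters and shows no binding.

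Of the factors between contact phase and thrombin, F10 fell and F9 and F7 did not pass. F10, where both arms of the chain meet, was the steadiest of the 10 genes in controls, with 205.42 to 252.05 TPM (median 217.07) and a coefficient of variation of 7.76%. AP livers spanned 213.88 to 290.43 TPM (median 237) and SAP livers 93.42 to 139.86 TPM (median 120). Every SAP liver lay below every control and every AP liver, and the log2 difference from controls was -0.95 ± 0.09 (SE, limma adjusted p = 1.08e-09), a 1.93-fold fall. F9, the protease that activates factor X, was at 30.1 ± 3.20 TPM in controls and 27.7 ± 2.63 TPM in SAP. Its log2 difference was -0.11 with a 95% confidence interval from -0.30 to 0.07 (limma adjusted p = 0.267). F7, the protease of the tissue factor pathway, was at 13.1 ± 4.70 and 14.7 ± 3.96 TPM (log2 difference 0.18, interval -0.27 to 0.62, limma adjusted p = 0.462). It was the most variable of the 10 in controls, with a coefficient of variation of 35.9%, and its interval is the widest of the 10.

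F2, the precursor of thrombin, had the largest rise. It ran from 168.31 to 379.51 TPM in controls (median 277), from 280.32 to 592.65 in AP (median 410) and from 428.78 to 713.42 in SAP (median 576). All 8 SAP livers lay above every control, and the log2 rise was 1.08 ± 0.18 (SE, limma adjusted p = 5.33e-06), a 2.12-fold change. F5, the cofactor that speeds the making of thrombin, was at 12.4 ± 1.65 TPM in controls and 17.5 ± 3.12 TPM in SAP (log2 rise 0.46 ± 0.12, limma adjusted p = 0.0011), with 5 of 8 SAP livers above every control. Factor V is also carried by platelets. Of 6 platelet markers, the 2 tested moved apart in SAP, with Pf4 higher and Itga2b lower. All 6 together summed to 3.80 to 6.53 TPM in controls (mean 4.98) and 13.2 to 31.8 in SAP (mean 21.2). Of these means Pf4 alone made up 1.81 and 19.0 TPM, so the sum mostly follows Pf4. Itga2b went from 1.79 to 1.13 TPM. Among the untested markers the means of Gp6 and Gp9 were lower in SAP and those of Ppbp and Gp1ba higher. Whether platelet RNA has a part in the F5 level was not tested. In the annotation F5 overlaps Gm16548, a non-coding gene on the opposite strand that was at 6.27 ± 1.09 TPM in controls and 1.06 ± 0.515 TPM in SAP, and the sources used here do not say whether strand was used in counting.

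The windows of F2 and F10 hold none of the 4 motifs. Promoters were matched for 8 of the 10 genes. Among them F9 held the C/EBP, STAT and HNF4 letters (STAT in 8.30% and HNF4 in 1.41% of all promoters), and F5, F7 and F12 held none.

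The anticoagulant protease and the fibrinolytic one moved in opposite directions. Proc ran from 228.63 to 325.53 TPM in controls (median 255), from 270.02 to 406.89 in AP (median 336) and from 149.06 to 226.46 in SAP (median 194). The SAP livers lay below every control and every AP liver, and the log2 difference from controls was -0.46 ± 0.11 (SE, limma adjusted p = 0.000472). Its size depended on scaling and on the libraries, with -0.74 after centring on the median and -0.31 without SAP 26 to 29 (limma adjusted p = 0.0291). Plg ran from 215.01 to 334.93 TPM in controls (median 283), from 286.73 to 520.25 in AP (median 319) and from 337.33 to 543.04 in SAP (median 450). All 8 SAP livers exceeded every control, with a log2 rise of 0.68 ± 0.13 (SE, limma adjusted p = 3.46e-05). Slc22a3, which overlaps 10.2% of the windows of Plg from the opposite strand, was at most 1.98 TPM in any library.

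**Figure D2:**
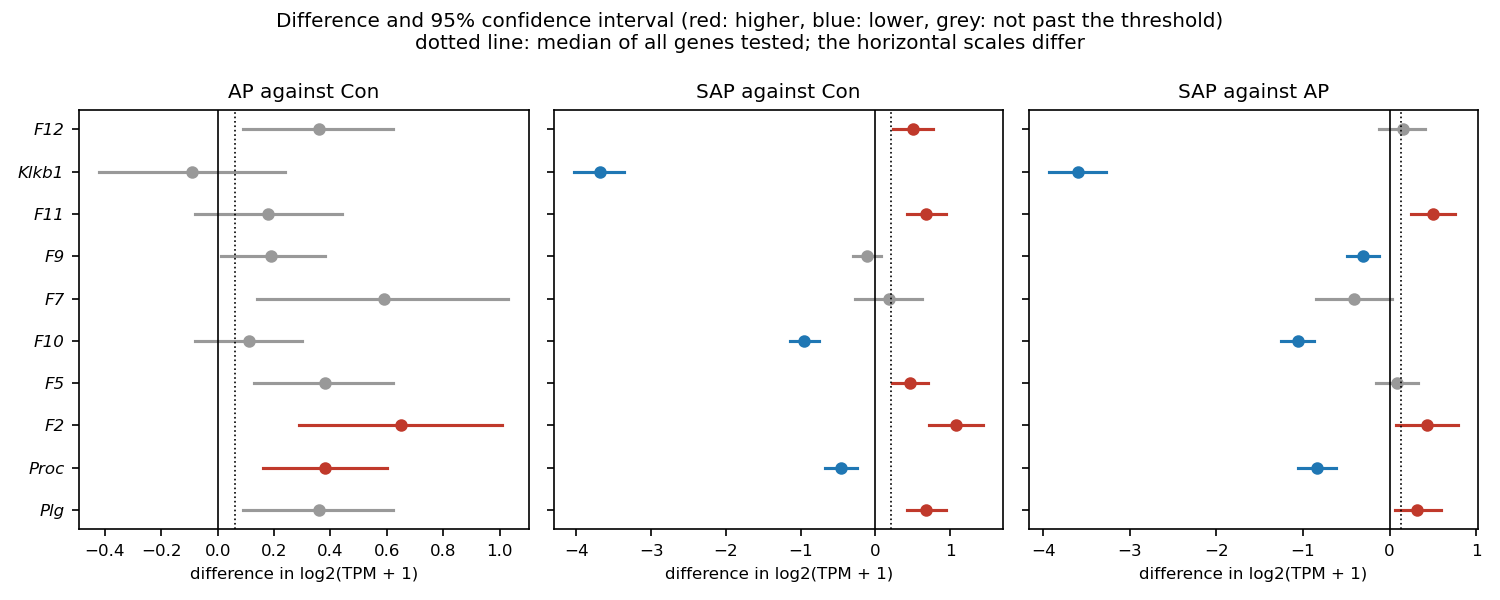
Difference in log2(TPM + 1) (horizontal axes, on different scales) with its 95% confidence interval for each gene in the 3 comparisons, coloured by whether and in which direction it passed, with a dotted line at the median of all genes tested. Klkb1 stands far from the others in both comparisons with SAP and near 0 in AP against controls, where F2 and Proc alone pass.

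In acute pancreatitis without the severe label the differences were small. F2 and Proc rose (2 of 10, against 4.35% of all genes), none fell (1.13% of all genes) and 8 did not pass. In none of the 10 did all AP livers lie above or below all controls, which was the case for 0.644% and 0.104% of all genes. The median log2 difference of the 10 genes was 0.36, against 0.06 over all genes tested. F2 went from 273 ± 75.8 to 427 ± 114 TPM (log2 rise 0.65 ± 0.18, limma adjusted p = 0.0319). In 5 of 8 AP livers it exceeded all controls. Proc went from 261 ± 32.5 to 342 ± 53.8 TPM (log2 rise 0.38 ± 0.11, limma adjusted p = 0.0373), and 4 of 8 exceeded all controls. F7 was at 20.5 ± 7.88 TPM in AP and had a log2 difference of 0.59 ± 0.22 that did not pass (limma adjusted p = 0.109). Klkb1 was at 32.0 ± 4.40 TPM, with a log2 difference of -0.09 and an interval from -0.42 to 0.24.

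The calls in AP varied with the AP livers used and with the scaling. F2 ran from 437.32 to 592.65 TPM in AP 15, 17, 18 and 19 but only from 280.32 to 381.9 TPM in AP 11, 12, 13 and 16, where controls reached 379.51 TPM. The same livers divided F7, with 22.1 to 33.14 TPM against 11.32 to 15.27, and Proc, with 349.09 to 406.89 TPM against 270.02 to 322.7. No test was made between these sets, which were found from values, and the part of the lower mitochondrial share of AP 15, 17, 18 and 19 in these levels was not tested. How many of all genes these sets divide was not counted, so the division cannot be called particular to F2, F7 and Proc. Without AP 15, 17, 18 and 19 none of the 10 passed, with a log2 difference of 0.32 for F2 (limma adjusted p = 0.923) and 0.19 for Proc (0.949), and only 9 of 10601 genes in all passed as higher. With only these 4 AP livers 5 of 10 passed (F2, F5, F7, Proc, Plg), as did 9.11% of all genes. None of the 10 passed after quantile normalization (F2 limma adjusted p = 0.0684, Proc 0.219) or with the 50 most abundant genes left out of the total (0.0582 and 0.147), and after centring on the median F2, F12 and Plg passed (0.0182, 0.0334 and 0.0437) and Proc did not (0.0981). Of all genes 3.68%, 1.54% and 7.08% passed as higher under these scalings, in that order. None passed either when AP 15, AP 17, AP 18, AP 19, Con 10, Con 7 or Con 1 was left out in turn, while F2 alone passed without Con 5 and 4 genes without Con 6 (F2, F5, F7, Proc). With 1 library left out the log2 differences stayed between 0.56 and 0.73 for F2 and between 0.34 and 0.43 for Proc, while calls over all genes also moved, from 459 higher to 135 without Con 7 and 684 without Con 6.

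Between severe and non-severe pancreatitis, 3 of 10 genes were higher in SAP (F2, F11, Plg, against 41% of all genes), 4 of 10 were lower (F9, F10, Klkb1, Proc, against 31%) and F5, F7 and F12 did not pass. Every SAP liver lay below every AP liver for F10, Klkb1 and Proc (3 of 10, against 15.2% of all genes) and in no gene above every AP liver (22% of all genes). The median log2 difference of the 10 genes was -0.11, against 0.13 over all genes tested. This comparison shares its SAP livers with the one against controls. Klkb1 differed by -3.60 ± 0.16 on the log2 scale (limma adjusted p = 7.86e-16), F10 by -1.06 ± 0.09 (limma adjusted p = 1.72e-10) and Proc by -0.84 ± 0.11 (limma adjusted p = 1.6e-07). F9 was at 34.6 ± 4.16 TPM in AP and 27.7 ± 2.63 in SAP (log2 difference -0.31 ± 0.09, limma adjusted p = 0.00427), with 5 of 8 SAP livers below every AP liver. F11 rose by 0.50 ± 0.12 (limma adjusted p = 0.000909). The smaller rises of F2 (0.43 ± 0.18, limma adjusted p = 0.0305) and Plg (0.32 ± 0.13, limma adjusted p = 0.0252) were lost after centring on the median (adjusted p = 0.22 and 0.344), where the split was 1 higher and 5 lower and that of all genes was 35.1% higher and 40.5% lower. After quantile normalization it was 4 higher and 5 lower, against 38.7% and 36.2% of all genes. Under that scaling F12 passed as higher (limma adjusted p = 0.000968) and F7 as lower (0.0185). F12 also passed with the 50 most abundant genes left out of the total (0.0207), and F7 also after centring (0.00778), without SAP 21 to 25 (0.0313) and without AP 11, 12, 13 and 16 (0.00194). Plg was also lost without AP 12, AP 13, SAP 28 or SAP 29, and F2 without AP 11, AP 12, AP 13, SAP 21 or SAP 25 in turn and without SAP 21 to 25 together (0.35 on the log2 scale, limma adjusted p = 0.162). F11 alone was higher without AP 12, without AP 13 and without SAP 26 to 29, and none of the 10 was without AP 11, 12, 13 and 16 (F11 limma adjusted p = 0.0575). Of all genes 40.2%, 39.7%, 31.9% and 35.3% were higher in these settings, in that order.

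The summed level of the 10 genes and its makeup are given next, and comparing genes in this way rests on the inferred unit. The sum was 1231 ± 180 TPM in controls and stood at 1607 ± 288 TPM in AP and 1531 ± 173 TPM in SAP. In controls 4 genes were abundant and close together, with Plg at 277 ± 36.3, F2 at 273 ± 75.8, Proc at 261 ± 32.5 and F10 at 224 ± 17.4 TPM, where only the range of F10 (205.42 to 252.05) was narrow. F12 followed at 93.9 TPM, then Klkb1 and F9 at 34.4 and 30.1 TPM, whose ranges overlapped, and F7, F5 and F11 at 13.1, 12.4 and 12.3 TPM, whose ranges overlapped too. In SAP the order began with F2 and Plg, at 565 ± 94.5 and 447 ± 73.2 TPM, F10 stood below F12, and Klkb1 moved from the sixth place to the last. F2 made up 21.8 ± 3.20% of the sum in controls, 26.2 ± 2.65% in AP and 36.7 ± 2.48% in SAP, F10 18.4 ± 1.63%, 15.3 ± 1.72% and 7.61 ± 0.984%, and Proc 21.3 ± 1.38%, 21.4 ± 1.00% and 12.5 ± 1.90%.

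Ratios of 2 genes within a library do not depend on the total to which that library was scaled. These 3 were chosen after the values were seen, and they are given with no test. The ratio of Klkb1 to F11 ran from 1.75 to 4.05 in controls (median 2.86), from 1.56 to 3.12 in AP (median 2.44) and from 0.030 to 0.201 in SAP (median 0.083). The ratio of F10 to F2 ran from 0.664 to 1.27 in controls (median 0.789), from 0.471 to 0.824 in AP (median 0.562) and from 0.168 to 0.265 in SAP (median 0.207). The ratio of Proc to F2 ran from 0.744 to 1.36 in controls (median 0.915), from 0.683 to 0.963 in AP (median 0.822) and from 0.286 to 0.455 in SAP (median 0.334). In each of the 3 ratios the SAP livers lay below all AP and control livers. Against controls this had to be so. Every SAP liver lay below every control for Klkb1, F10 and Proc and above every control for F11 and F2.

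**Figure D3:**
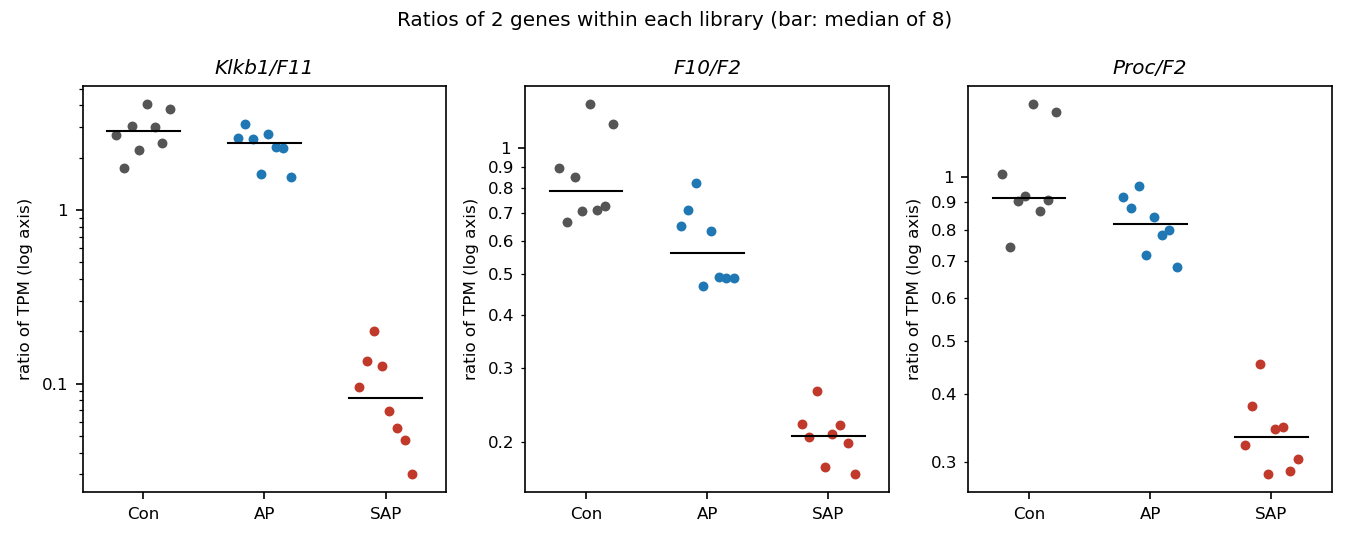
Ratios of the TPM of 2 genes within each library (vertical log axes) for Con, AP and SAP livers, with 1 point per library and a bar at the median of 8. The SAP livers lie below all others in each panel, with a median Klkb1 to F11 ratio of 0.083 against 2.86 in controls. Against controls this follows from the levels of the single genes.

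Within SAP, Klkb1 and Proc were lower in livers 26 to 29 than in livers 21 to 25. Klkb1 was 0.82 to 1.28 TPM there and 1.96 to 3.43 TPM in livers 21 to 25, and Proc was 149.06 to 184.9 against 203.68 to 226.46 TPM, with no overlap in either. F10 overlapped, with 93.42 to 121.51 TPM against 119.08 to 139.86 TPM. These sets were told apart by values, and no test was made between them. How many of all genes do not overlap between them was not counted, so the split cannot be called particular to Klkb1 and Proc. Against controls, the same 5 genes passed as higher and the same 3 as lower with either set of SAP livers left out. Of all genes 48.6% rose and 24.5% fell without SAP 21 to 25, and 35.8% rose and 35.8% fell without SAP 26 to 29.

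Of 41 tested genes in 7 lists of partners of these proteins, 16 rose in SAP (39%, against 44.2% of all genes) and 10 fell (24.4%, against 29.8%), so the counts of the lists are no higher than the background. Among these 16, Serpina5, Thbd and Plaur reached the filter of 1 TPM only through SAP. Of 8 substrates and cofactors (median log2 difference 0.11, against 0.21 over all genes), the 3 fibrinogen chains rose, F8 and F13a1 fell and 3 did not pass. Fgg went from 399 ± 131 to 12930 ± 3371 TPM (log2 rise 5.04 ± 0.21, limma adjusted p = 1.93e-16) and Fgb from 689 ± 235 to 13170 ± 3152 TPM (log2 rise 4.29 ± 0.21, limma adjusted p = 2.71e-15). F8, the cofactor of factor IX, went from 4.40 ± 1.36 to 2.31 ± 1.64 TPM (limma adjusted p = 0.00511). F13a1, a chain of the enzyme that crosslinks fibrin, went from 3.38 ± 2.31 to 1.22 ± 1.39 TPM (limma adjusted p = 0.0401), a call that was lost with the 50 most abundant genes left out of the total (0.0585). In AP, F13a1 was at 0.964 ± 1.06 TPM, which did not pass against controls (limma adjusted p = 0.118). SAP against AP did not pass either (limma adjusted p = 0.769). Kupffer cell markers, of which 4 of 5 fell and Marco rose, summed to 54.4 to 210 TPM in controls and 42.9 to 85.7 TPM in SAP. Of 5 tested markers of sinusoidal endothelium Lyve1, Stab2 and Cdh5 rose (log2 3.10, 1.66 and 1.53) and Clec4g fell (-2.21), and the list summed to 15.3 to 41.1 and 15.0 to 52.4 TPM. The part of these cells in F8 and F13a1 was not tested. Vwf, the carrier of factor VIII, was not called (limma adjusted p = 0.0594) but passed as lower after quantile normalization (0.0177) and centring (0.012). Of the 3 kinin and contact partners (median -0.28), Kng1, a kininogen gene, fell from 828 ± 155 to 633 ± 42.8 TPM (limma adjusted p = 0.00431), Kng2 rose from 166 ± 41.0 to 222 ± 17.9 TPM (limma adjusted p = 0.00257, but 0.115 after centring on the median) and Hrg, at 283 ± 64.2 and 233 ± 54.0 TPM, did not pass (limma adjusted p = 0.127) except as lower after centring (0.00326). In AP against controls Fga and Fgg rose (limma adjusted p = 0.0409 for each), and both calls ended after quantile normalization (0.0841 and 0.133).

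Among natural brakes of clotting, 7 of 9 could be tested in SAP, where Serpina10, Serpina5, Pros1 and Thbd rose, Serpind1 and Proz fell and Serpinc1 did not pass (median 0.83). Serpind1, heparin cofactor II, fell from 104 ± 16.6 to 11.2 ± 4.81 TPM (log2 difference -3.19 ± 0.19, limma adjusted p = 1.71e-13). Proz, protein Z, fell from 106 ± 11.6 to 16.5 ± 4.78 TPM (-2.64 ± 0.13, limma adjusted p = 3.37e-15). Serpinc1, antithrombin, was at 969 ± 130 and 815 ± 181 TPM (limma adjusted p = 0.0629) and passed as lower under each of the other scalings (adjusted p = 0.0314, 0.00259 and 0.0438). Of the regulators of fibrinolysis, 4 of 6 could be tested, of which Plaur and Cpb2 rose. Plaur, the urokinase receptor, went from 0.310 ± 0.246 to 9.72 ± 3.05 TPM (log2 rise 3.00 ± 0.16, limma adjusted p = 1.39e-14). Its mean in AP was 0.21 TPM, so Plaur reached the filter of 1 TPM only through SAP and could be called only as a rise. Cpb2, which protects fibrin from plasmin, went from 154 ± 36.3 to 477 ± 139 TPM (log2 rise 1.60 ± 0.17, limma adjusted p = 5.17e-09). Among the untested genes the mean of Plat was higher in SAP (0.11 to 1.66 TPM) and that of Plau lower (0.46 to 0.14 TPM). Serpinf2 and Serping1 did not pass (limma adjusted p = 0.93 and 0.817) but did as lower after centring (0.0427 and 0.0102), and the list's median was 0.81. Plaur is also made by neutrophils, whose markers summed to 123 to 349 TPM in SAP, and their part in its level was not tested.

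Factors II, VII, IX and X, protein C and protein Z need carboxylation of their glutamates with vitamin K. Of 7 genes of that cycle and of processing (median -0.17), Vkorc1l1 and Furin rose in SAP, Vkorc1 and Hpn fell and 3 did not pass. Vkorc1, which recycles vitamin K, went from 170 ± 31.8 to 41.7 ± 5.90 TPM (-1.99 ± 0.12, limma adjusted p = 4.01e-13), with every SAP liver below every control. Hpn, a liver protease that can activate factor VII, went from 269 ± 23.8 to 76.9 ± 8.84 TPM (-1.80 ± 0.09, limma adjusted p = 4.89e-15). Ggcx, the carboxylase, was at 6.39 ± 1.90 and 5.09 ± 1.91 TPM (limma adjusted p = 0.16) and passed as lower after quantile normalization (0.000881) and centring (0.00129). Lman1 passed as lower after centring only (0.00573) and Mcfd2 as higher only with the 50 most abundant genes left out (0.0398). In AP, Ggcx and Vkorc1 rose against controls (limma adjusted p = 0.0437 and 0.0321), and both were lost with the 50 most abundant genes left out of the total (0.091 and 0.108), Vkorc1 also after quantile normalization (0.145).

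Of 6 related liver proteases 5 could be tested in SAP (median -0.28), with Masp1 higher, Hgfac and Masp2 lower and Habp2 and Mst1 not passing. Habp2 passed as lower after quantile normalization (limma adjusted p = 0.00261) and centring (0.00118). Hgfac, the activator of hepatocyte growth factor, went from 145 ± 23.5 to 50.8 ± 7.69 TPM (-1.50 ± 0.12, limma adjusted p = 2.32e-11). Of 8 transcription factors of liver genes 7 could be tested (median 0.33), with Hnf4a, Cebpb and Prox1 higher, Cebpa lower and Foxa1, Foxa2 and Foxa3 not passing. Cebpb went from 52.7 ± 15.6 to 136 ± 21.2 TPM (1.40 ± 0.16, limma adjusted p = 2.95e-08) and Hnf4a from 58.8 ± 7.33 to 87.3 ± 24.6 TPM (0.52 ± 0.14, limma adjusted p = 0.0021). The rises of Hnf4a and Masp1 ended after centring on the median (limma adjusted p = 0.0785 and 0.176), those of Prox1 and Vkorc1l1 after quantile normalization (0.131 and 0.154) and centring (0.311 and 0.159), and Foxa2 passed as lower under both (0.00493 and 0.00497).

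**Figure D4:**
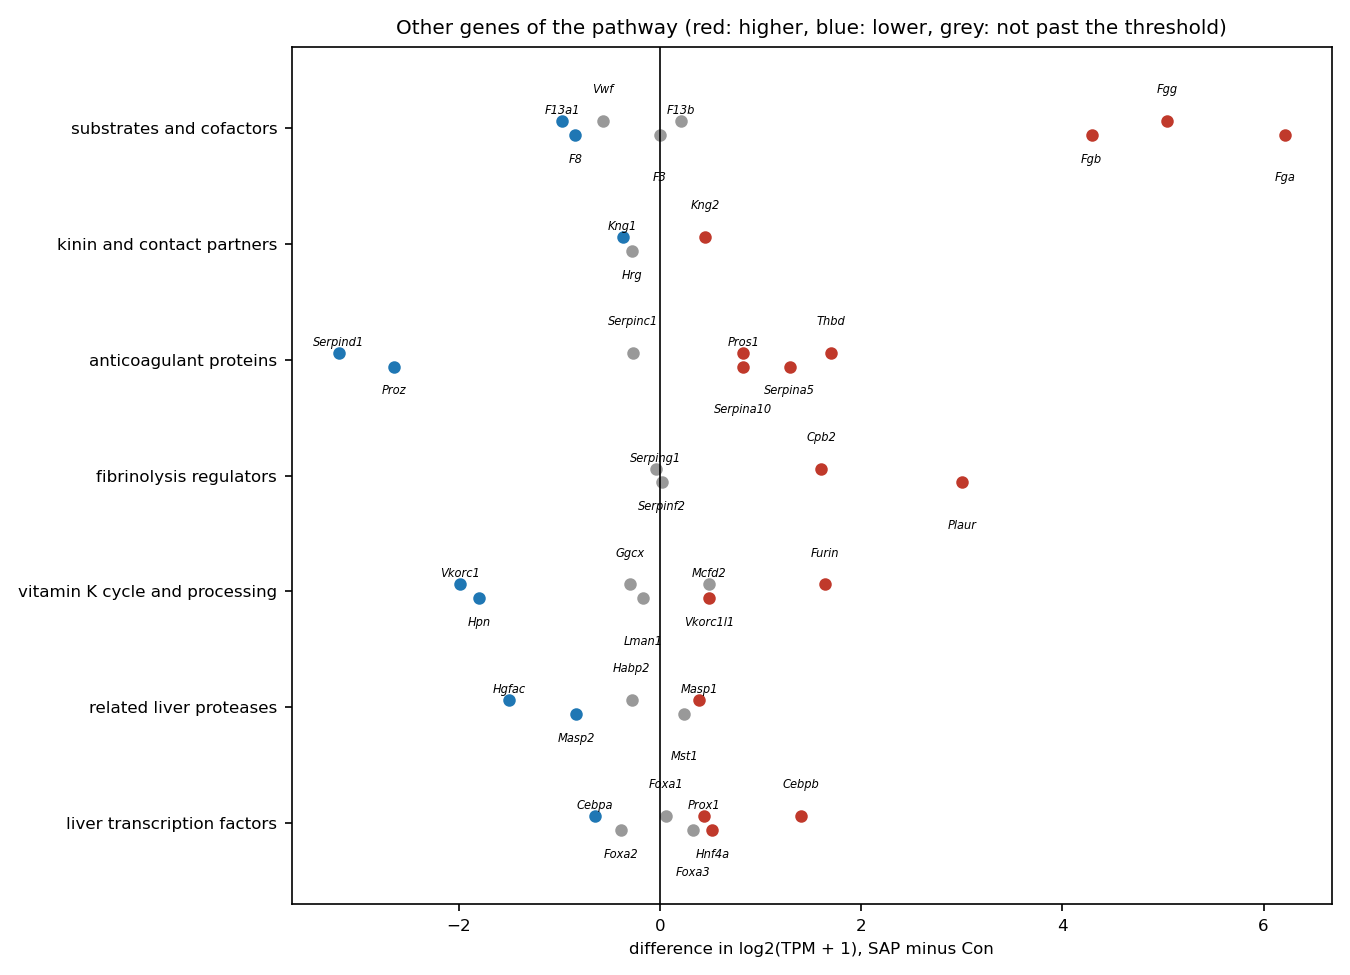
Difference in log2(TPM + 1) between SAP and control livers (horizontal axis) for the tested genes of 7 lists of partners of the 10 genes (rows), with 1 point per gene, coloured by whether and in which direction it passed. The 3 fibrinogen chains lie above 4, and Serpind1 and Proz below -2.

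Predicted and clone-named genes were left out of the search for genes most alike. Across the 24 libraries, the other genes whose log2 level was most like the mean of the 10 standardised profiles were Gabarapl1 (Pearson r = 0.941), Apoh (0.903), Hc (0.900), Cfi (0.888) and Idh2 (0.886). That mean averages genes that moved in opposite directions in SAP. Apoh, a plasma glycoprotein gene that was also among the hepatocyte markers, was at 1213 ± 221 TPM in controls, with 1558 ± 198 TPM in AP and 1257 ± 179 TPM in SAP. For Klkb1 alone, an addition made after its values were seen, the nearest genes were Abcb11 (r = 0.989), Proz (0.989), Ttc36 (0.988), Tmem205 (0.988) and Mcee (0.987). Abcb11, the bile salt export pump, was at 159 ± 25.4 TPM in controls, with 115 ± 16.2 TPM in AP and 4.48 ± 2.03 TPM in SAP. The libraries share their groups, and the correlations are given as a description.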

How the data were processed

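Liver RNA from 24 libraries, 8 per group, had been extracted with Trizol and sequenced, per the labels. The deposited table holds TPM per gene symbol. That the values are TPM is inferred, as library sums fall just short of 1000000. Such sums cannot tell TPM from counts per 1000000 that are not divided by transcript length. The submitters' processing notes name edgeR, with no version. The sources used here name no aligner, genome build or annotation. TPM keeps no depth, so no counting interval is given, and TPM is relative to a fixed total, so abundant transcripts that rise lower all others.

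Libraries were grouped by their titles, and 0 columns stayed unmapped. On the log2(TPM + 1) scale, 10555 genes averaging 1 TPM or more were tested and 44981 were not. One limma model (limma 3.58.1, R 4.3.3) with group as its only term and a trend in intensity used every library, leaving 21 residual degrees of freedom, with Benjamini-Hochberg adjustment over all genes. It was tested on simulated data. The genes and lists were chosen with earlier results of these data known. All 10 genes are named, and from each other list the 2 with the smallest p over all groups, besides calls of 5 or fewer, plus a few chosen after their values were seen. Genes called most alike have a mean of at least 5 TPM and the highest correlation with the mean profile, or with Klkb1, once the 10 genes and predicted or clone-named genes are left out. Overlaps and shared 50-base windows come from GENCODE M21. Promoters come from RefSeq, and those of Plg and Proc were not used here. Of the other lists 2 genes, and 1 motif searched for, are not reported here, and counts and medians leave them out. Alternatives covered scaling, filter, pseudocount, test, threshold and libraries left out. Python 3.11.15, pandas 2.3.3 and matplotlib 3.10.9 were used.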

Additional observations from a re-analysis of the deposited data

Results flagged for a closer look

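F12 in SAP 29, at 158.41 TPM, stood apart from the other SAP livers, which ran from 118.56 to 136.33 TPM. Its gap to the next liver was 0.554 of the range of the group, above Dixon's 95% critical value of 0.526 for 8 samples. Of 33 groups of values looked at (10 genes and their sum in 3 groups) this was the only 1, and chance alone marks about 1 in 20. F12 passed as higher in SAP than in controls without this liver too.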

How the results depend on the processing

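Against controls, the calls in SAP of F2, F11, F12 and Plg as higher and of F10, Klkb1 and Proc as lower held under every alternative at an adjusted p under 0.05, and F5 failed under quantile normalization and centring. Requiring a difference of at least 1 on the log2 scale left 1 gene higher (F2) and 1 lower (Klkb1). Over all genes, 22.7% were higher and 15.5% lower at this limit. The number of genes higher in AP than in controls was 0 after quantile normalization, after rescaling without the 50 most abundant genes, with no filter, at a threshold of 0.01, with a difference of at least 1 and without AP 15, 17, 18 and 19, against 7 with array weights (11.9% of all genes) and 5 without AP 11, 12, 13 and 16 (9.11% of all genes). With 1 library left out in turn it ran from 0 to 4. Between SAP and AP, the number higher was 1 after centring, at a threshold of 0.01 and without SAP 26 to 29, and 0 with a difference of at least 1 and without AP 11, 12, 13 and 16, and the number lower was 2 with a difference of at least 1. With 1 library left out the number higher ran from 1 to 3 and the number lower from 4 to 5. In SAP against controls leaving out 1 library gave 5 higher and 3 lower each time, and in AP 0 genes were lower each time. Signs changed only for differences that had not passed. F10 in AP against controls was -0.09 after quantile normalization and -0.02 after rescaling. F7 in SAP against controls was -0.09 after quantile normalization, -0.10 after centring and -0.07 without SAP 21 to 25. In SAP against AP, F5 was -0.01, -0.14 and -0.08 after quantile normalization, after centring and without AP 11, 12, 13 and 16, F7 was 0.05 without AP 15, 17, 18 and 19, and F12 was -0.08 after centring. The cause was not tested. Over all genes, the split in AP against controls was 459 higher and 119 lower, against 388 and 265 after quantile normalization and 194 and 215 after rescaling, and in SAP against controls 4661 and 3147, against 3888 and 4300 after centring. No paired analysis was possible because the groups share no replicate numbers.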
